A study of Homo sapiens with 10 samples.

Results

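The genes that separate 2 ways of switching on WNT signalling were measured by RNA sequencing in ESI017 cells, an established wild-type human embryonic stem cell line. The ligand WNT3A (300 ng/ml) and the small molecule CHIR99021 (8 µM) were each given for 6 h in mTeSR1, a defined medium that keeps the cells pluripotent. The comparison was defined by treatment and time, and it was chosen with earlier results of these data known. It takes 4 of the 10 libraries of the study, 1 library of each treatment from each of 2 biological repeats, and sets the libraries against each other within a repeat. Both treatments followed 24 h of culture after plating, and all groups share the line, the medium and the absence of any other added factor. The 2 libraries of untreated cells in mTeSR1 serve as background, without a stated time of culture and without the solvent of CHIR99021 being named. The other 4 libraries had 18 h of WNT3A (1 from each repeat) or 18 h of CHIR99021 (both from repeat 2). Levels are in CPM, counts per 1e+06 of a library total scaled with edgeR's TMM factors. CPM is not divided by gene length and is compared here within a gene only.

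WNT ligands bind a Frizzled receptor together with LRP5 or LRP6 at the cell surface. The bound receptor recruits Dishevelled and AXIN and halts the destruction complex, in which AXIN, APC, casein kinase 1 and GSK3 mark β-catenin for degradation. Stabilised β-catenin enters the nucleus and turns TCF and LEF factors from repressors, which hold TLE co-repressors, into activators. CHIR99021 inhibits both GSK3 kinases and so acts below the receptor, and it reaches GSK3 outside the destruction complex as well. In pluripotent cells canonical WNT signalling induces negative feedback genes first, and then genes of the primitive streak, the region of the embryo where mesoderm and endoderm form, and of caudal patterning. The question put by this design is which genes the ligand drove more strongly than direct GSK3 inhibition over the same 6 h.

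The 10 libraries held 1.66e+07 to 2.67e+07 estimated counts, so that 3 counts corresponded to 0.112 to 0.180 CPM of the unscaled total. Floors from counts cover counting error alone. WNT3A 6 h repeat 2, the deepest library, and mTeSR1 repeat 2 stood apart. In them a gene's deviation from its mean over the libraries increased with gene length (Spearman rho across genes of 0.448 and 0.349, against -0.293 to -0.013 in the other 8). Mitochondrially encoded genes took 4.51% and 5.37% of counts with WNT3A 6 h, 3.71% and 5.02% with CHIR99021 6 h, and 3.94% and 6.73% in mTeSR1. The pluripotency genes POU5F1, SOX2 and LIN28A were at 562 CPM or more, 233 CPM or more and 2099.7 CPM or more in each of the 6 libraries of untreated and 6 h cells. HBB, which encodes a globin and is not a gene of these cells, was at 50.1, 55.9 and 109 CPM in the repeat 1 libraries of mTeSR1, WNT3A 6 h and CHIR99021 6 h and at 0 in those of repeat 2.

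Few genes passed the test between the agents. Of 15251 genes tested with edgeR's quasi-likelihood test in a model with the repeat as a block, 3 passed a Benjamini-Hochberg adjusted p (FDR) of 0.05, which is 0.0197%. Lower with CHIR99021 were NEDD9 and SMARCA2 (0.0131%), and higher was AL513523.9 (0.00656%). A level below that of WNT3A and above that of mTeSR1 in both repeats was found for 668 genes (4.38%), and the mirror order, below mTeSR1 and above WNT3A, for 458 (3.0%). Both CHIR99021 libraries lay below both WNT3A libraries in 2746 genes (18.0%) and above both in 2515 (16.5%). An unadjusted p under 0.05 was reached by 1048 genes lower (6.87%) and 789 higher (5.17%) with CHIR99021.

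The number of calls depended on how the spread was estimated. Both CHIR99021 18 h libraries share in that estimate, and they differed from each other in the genes described here. EVX1, a homeobox gene of the streak, was at 0.119 CPM in one and 52.1 CPM in the other. Over the caudal list defined below the median absolute log2 difference between the 2 libraries of a group was 1.48 for CHIR99021 18 h, against 0.18 for CHIR99021 6 h and 0.57 for WNT3A 6 h. Over all genes CHIR99021 18 h had the lowest of these values, 0.16, against 0.20 for CHIR99021 6 h and 0.36 for WNT3A 6 h. In the fit without CHIR99021 18 h, 14 genes of 15141 were lower with CHIR99021 at 6 h (0.0925%) and 2 were higher (0.0132%). The 14 were MIXL1, GBX2, CDX2, DKK4, EVX1, TBXT, LEF1, NKD1, NKX1-2, NEDD9, SMARCA2, GCNT1, SLITRK5 and FAM220A, and the 2 were AL513523.9 and AC009412.1. DESeq2 called 84 genes lower (0.551%) and 16 higher (0.105%) with all libraries. Among its 84, 48 had mTeSR1 below CHIR99021 and CHIR99021 below WNT3A in both repeats, as had 4.38% of all genes. The call itself selects for CHIR99021 below WNT3A, so this count and that share are not alike. Without any 1 of the 4 compared libraries edgeR called 0 genes, with 394 to 3665 at an unadjusted p under 0.05.

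**Figure D1:**
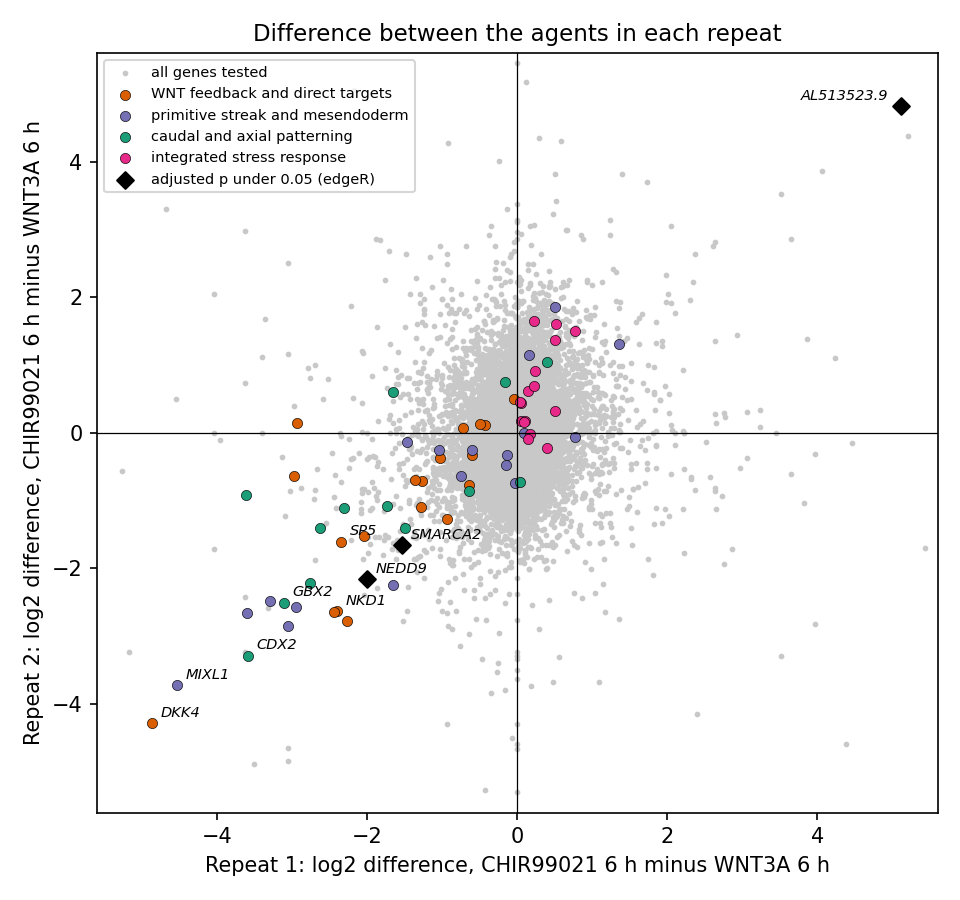
Log2 difference of CHIR99021 6 h minus WNT3A 6 h in repeat 1 (horizontal axis) and repeat 2 (vertical axis), 1 point per gene tested. Colours mark 4 gene lists and black diamonds the 3 genes past the FDR threshold. DKK4, MIXL1, CDX2, GBX2, NKD1 and SP5 lie in the lower left part, below 0 in both repeats, and 8 genes fall outside the plotted range of 5.6 in either direction.

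NEDD9 encodes a scaffold protein of focal adhesions. It was at 31.0 and 32.3 CPM with WNT3A in repeats 1 and 2, at 7.68 and 7.12 CPM with CHIR99021, and at 4.39 and 6.18 CPM in mTeSR1. Both CHIR99021 libraries were thus far below both WNT3A libraries and just above untreated cells. NEDD9 (ENSG00000111859, GRCh38 chromosome 6, 11183298 to 11382348, minus strand) was 4.27-fold higher with the ligand (log2 difference of CHIR99021 minus WNT3A -2.09, SE 0.21, FDR 0.028, edgeR). SMARCA2, which encodes an ATPase of SWI/SNF chromatin remodelling complexes, was at 49.9 and 118 CPM with WNT3A, 17.1 and 37.3 CPM with CHIR99021, and 5.81 and 13.2 CPM in mTeSR1. Its levels were lower in repeat 1 than in repeat 2 in every 6 h group and in mTeSR1, and within each repeat the order was the same. SMARCA2 (ENSG00000080503, chromosome 9, 1980290 to 2193624, plus strand) was 3.04-fold higher with the ligand (-1.60, SE 0.16, FDR 0.028, edgeR). Without the block SMARCA2 did not pass (FDR 0.69) and NEDD9 was at FDR 0.053.

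AL513523.9, an unannotated gene whose identifier is not on the primary assembly in GENCODE 29, was at 0 counts in both WNT3A 6 h libraries. It was at 3.46 and 2.81 CPM with CHIR99021, 2.72 and 3.29 CPM in mTeSR1, and 2.48 to 4.18 CPM in the 18 h libraries. Against a floor of 3 counts per library, CHIR99021 was at least 24.2-fold higher (FDR 0.028, edgeR). The CHIR99021 levels were near those of mTeSR1, so the difference lay in the 0 counts with WNT3A at 6 h. Whether its reads were assigned to another symbol in those libraries was not tested.

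Among genes with the same sign in both repeats and a mean of at least 1 CPM in either group, the next lower with CHIR99021 by unadjusted p were TLE3, RREB1, CCND1, KLF5, SERTAD4, RELL1, LRP4 and DKK4, none past the threshold over all genes. TLE3, CCND1 and DKK4 belong to lists described below. RREB1, a zinc finger factor that acts with SMAD proteins in RAS and TGFB responses, was at 150.3 and 250.3 CPM with WNT3A, 66.5 and 84.6 CPM with CHIR99021, and 39.6 and 69.8 CPM in mTeSR1 (-1.38, SE 0.20, FDR 0.18). KLF5, a Krüppel-like factor, was at 19.2 and 20.6 CPM against 7.35 and 5.61 CPM, over 1.20 and 1.47 CPM untreated (-1.62, SE 0.24, FDR 0.18). In both genes the 2 groups did not overlap. The SERTA domain gene SERTAD4 was at 6.61 and 10.7 against 2.11 and 3.51 CPM, and RELL1 at 25.0 and 23.2 against 9.73 and 7.88 CPM. LRP4, a receptor that also binds WNT inhibitors, was at 61.8 and 64.9 against 39.0 and 27.6 CPM, the latter close to its untreated 36.2 and 35.3 CPM.

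The 3 pathway lists with the lowest medians, of 22, hold WNT feedback genes, streak genes and caudal genes. The gene lists were chosen with earlier results of these data known. Their medians and counts therefore describe the values and are not independent tests. In each of the 3 lists 1 gene carried ATCAAAG, a core TCF/LEF motif, near its start. Promoters of 300 bases, 250 before and 50 after the start site, were taken from RefSeq (GRCh38.p14) and searched on both strands for ATCAAAG, which reads CTTTGAT on the other strand, and for AACAAAG, which reads CTTTGTT. The first was in 919 of 35116 promoters (2.62%) and the second in 1826 (5.2%). Promoters were matched for 11 of 20 feedback genes, 13 of 22 streak genes and 11 of 15 caudal genes. The 1 gene with ATCAAAG made up 9.09%, 7.69% and 9.09% of those matched. A share that rests on 1 gene cannot be set against that of all promoters. SP5 (chr2:170715087-170715386, plus strand), MIXL1 (chr1:226223414-226223713, plus strand) and FGF18 (chr5:171419397-171419696, plus strand) held CTTTGAT, 109, 76 and 174 bases before the start. AACAAAG was in TCF7, and as CTTTGTT in DKK1 and WNT3. The promoter of the called gene NEDD9 (chr6:11382299-11382598, minus strand), shown for contrast, held neither. A match describes letters in this window only, and binding there was not measured. The sequences run 5′ to 3′ along the gene's strand, with CTTTGAT in capitals.
SP5: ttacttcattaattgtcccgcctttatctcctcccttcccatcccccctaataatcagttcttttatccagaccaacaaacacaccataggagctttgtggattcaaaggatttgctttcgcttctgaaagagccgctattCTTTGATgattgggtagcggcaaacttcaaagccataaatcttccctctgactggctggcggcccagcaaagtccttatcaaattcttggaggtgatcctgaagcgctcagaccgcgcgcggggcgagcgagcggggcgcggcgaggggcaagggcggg
MIXL1: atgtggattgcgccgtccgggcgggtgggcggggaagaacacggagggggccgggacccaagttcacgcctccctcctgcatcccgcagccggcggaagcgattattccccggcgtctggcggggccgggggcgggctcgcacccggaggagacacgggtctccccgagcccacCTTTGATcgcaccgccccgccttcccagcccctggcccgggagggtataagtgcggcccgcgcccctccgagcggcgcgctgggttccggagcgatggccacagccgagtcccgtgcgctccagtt
FGF18: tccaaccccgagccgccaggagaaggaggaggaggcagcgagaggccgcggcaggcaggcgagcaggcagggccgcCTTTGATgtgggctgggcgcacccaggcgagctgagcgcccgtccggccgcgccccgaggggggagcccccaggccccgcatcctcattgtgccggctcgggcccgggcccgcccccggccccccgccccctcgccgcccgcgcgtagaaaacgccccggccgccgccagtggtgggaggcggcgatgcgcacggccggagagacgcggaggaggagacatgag
NEDD9: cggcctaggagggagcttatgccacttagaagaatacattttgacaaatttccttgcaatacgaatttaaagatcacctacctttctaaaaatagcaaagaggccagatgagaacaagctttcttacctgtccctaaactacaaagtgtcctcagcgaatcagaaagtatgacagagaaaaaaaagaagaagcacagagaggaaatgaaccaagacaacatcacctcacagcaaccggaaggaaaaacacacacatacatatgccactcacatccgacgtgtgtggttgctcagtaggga

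WNT feedback and direct target genes were lower with CHIR99021 than with WNT3A almost throughout the list. Of 20 members 19 were tested (LGR5 was too low), 18 had a log2 difference below 0, and the median was -1.10, or -1.28 in repeat 1 and -0.71 in repeat 2, against -0.00 over all genes. The CHIR99021 libraries lay below both WNT3A libraries in 14 of the 19 and above them in 0, where 18.0% and 16.5% of all genes did so. In 11 of the 19 the order of levels was mTeSR1, CHIR99021, WNT3A in both repeats, against 4.38% of all genes. At the threshold over all genes edgeR called 0 of the 19. At an unadjusted p under 0.05 were 11, all lower, as were 6.87% of all genes. It called DKK4, LEF1 and NKD1 in the fit without CHIR99021 18 h, where 0.0925% of all genes were called lower. DESeq2 called 5 of the 19 with all libraries, AXIN2, CCND1, RNF43, TCF7 and TNFRSF19, against 0.551% of all genes called lower. These sets share no gene, and LEF1 had an adjusted p of 0.29 by DESeq2.

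Among the intracellular inhibitors of the pathway, NKD1, which binds Dishevelled, was at 256 and 259 CPM with WNT3A, 48.2 and 41.8 CPM with CHIR99021, and 11.8 and 16.3 CPM in mTeSR1. The groups were far apart and their libraries close together (log2 difference -2.52, SE 0.55, FDR 0.40, and FDR 0.043 without CHIR99021 18 h). By DESeq2 the adjusted p of NKD1 was 0.051. AXIN2, the inducible scaffold of the destruction complex and a standard readout of the pathway, was at 250.2 and 184 CPM with WNT3A, 104 and 112 CPM with CHIR99021, and 39.3 and 31.8 CPM in mTeSR1. With CHIR99021 it stood at 49.8% of the WNT3A mean, where NKD1 stood at 17.5% (AXIN2 log2 difference -0.98, SE 0.29, FDR 0.41). The related NKD2 did not separate the agents, at 6.70 and 6.09 against 4.92 and 6.64 CPM.

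Receptor-level inhibitors differed in the same direction. RNF43 and ZNRF3 encode ubiquitin ligases that remove Frizzled from the surface. RNF43 was at 15.1 and 15.7 CPM with WNT3A and at 3.03 and 2.21 CPM with CHIR99021, the second of these at its untreated level in that repeat (2.16 CPM). ZNRF3 differed less, at 58.3 and 47.6 against 38.1 and 38.0 CPM. The secreted LRP6 antagonist DKK4 had 0 counts in mTeSR1 and was at 21.9 and 8.21 CPM with WNT3A, against 0.649 and 0.324 CPM with CHIR99021. CHIR99021 thus gave 3.23% of the WNT3A mean of DKK4 (log2 difference -4.88, SE 0.79, FDR 0.39, and FDR 0.0085 without CHIR99021 18 h). DESeq2 gave no adjusted p for DKK4. For its relative DKK1 the WNT3A libraries disagreed, with 4.01 CPM in repeat 1 and 0.236 CPM in repeat 2, and CHIR99021 gave 0.433 and 0.270 CPM. The membrane inhibitor APCDD1 was at 26.7 and 12.3 against 10.3 and 7.61 CPM, and NOTUM, a lipase that inactivates WNT ligands, stayed at 1.13 CPM or less in all 6 libraries.

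Transcription factors and growth genes of the list followed. SP5, a zinc finger factor that WNT signalling induces directly, was at 311 and 175 CPM with WNT3A, 61.0 and 57.4 CPM with CHIR99021, and 0.366 and 0 CPM in mTeSR1 (log2 difference -1.98, SE 0.44, FDR 0.40). LEF1 was at 30.5 and 13.4 CPM with WNT3A against 5.52 and 2.05 CPM with CHIR99021. The related TCF7 was at 53.6 and 55.2 against 22.0 and 25.9 CPM. CCND1, which encodes cyclin D1, was at 712 and 872 CPM with WNT3A, 372 and 363 CPM with CHIR99021, and 158 and 210.4 CPM in mTeSR1 (log2 difference -1.10, SE 0.16, FDR 0.18). All 4 of these genes had groups that did not overlap. The receptor gene TNFRSF19 was at 13.5 and 11.5 against 3.19 and 3.94 CPM, and SP8 at 28.3 and 15.5 against 13.8 and 11.9 CPM. MYC was the 1 member above 0, with overlapping levels of 63.4 and 65.1 CPM with WNT3A and 61.2 and 91.7 CPM with CHIR99021, near its 86.0 and 82.6 CPM in mTeSR1. BAMBI and WIF1 overlapped as well, while KREMEN1, a DKK receptor, was at 8.07 and 7.35 against 5.14 and 4.26 CPM.

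**Figure D2:**
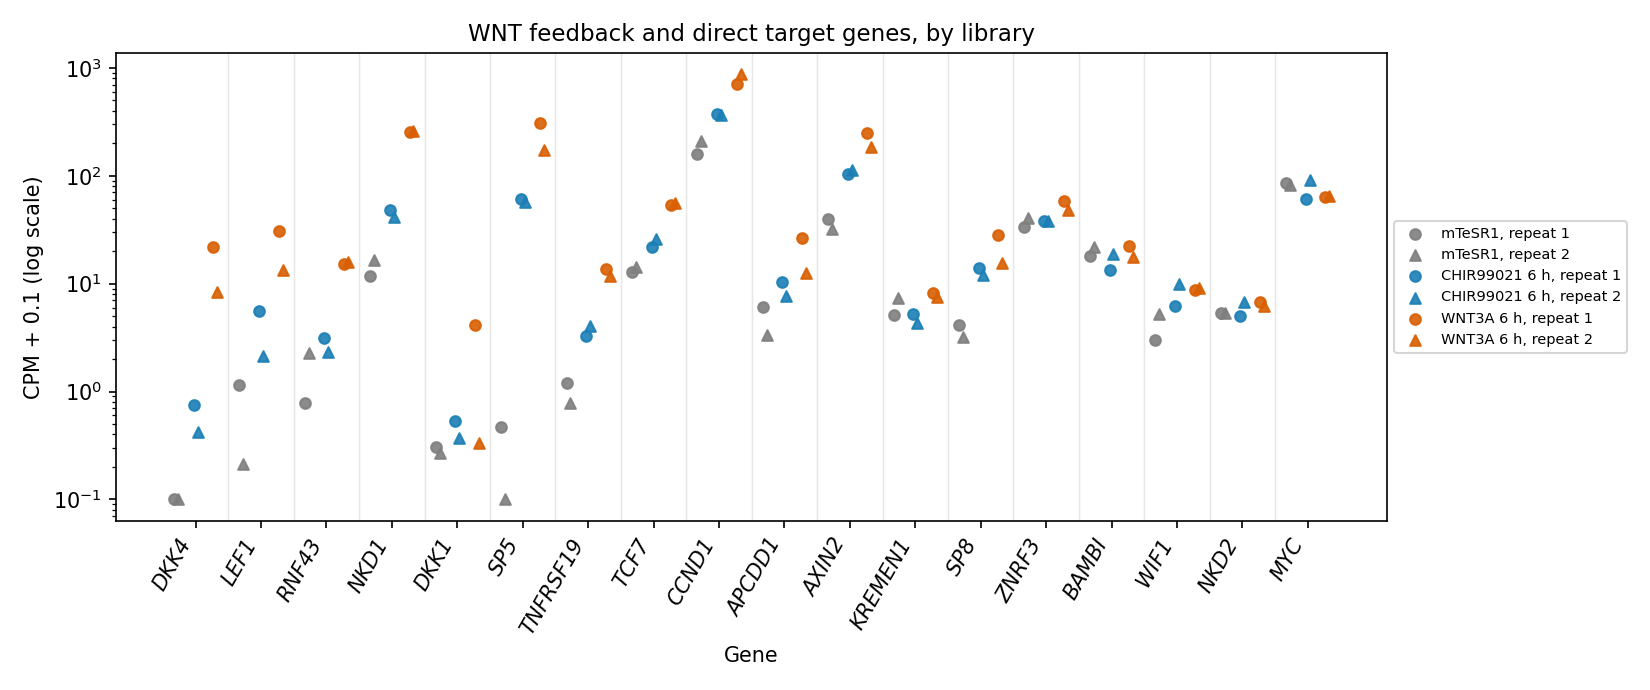
CPM plus 0.1 on a log axis for 18 WNT feedback and direct target genes with a mean of at least 1 CPM in either 6 h group, in untreated cells (grey), CHIR99021 6 h (blue) and WNT3A 6 h (orange), with circles for repeat 1 and triangles for repeat 2. Genes are ordered by the difference between the agents, from DKK4 at -4.88 to MYC at 0.22. In NKD1, SP5, TCF7, CCND1 and AXIN2 blue lies between grey and orange.

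Among genes of the primitive streak several transcription factor genes were far lower with CHIR99021 than with WNT3A, while NODAL, WNT3 and FGF8 overlapped. Of 22 members 18 were tested (GSC, MSGN1, GATA6 and SOX17 were too low). The CHIR99021 libraries lay below both WNT3A libraries in 7 and above them in 2 (18.0% and 16.5% of all genes), and 10 had the order mTeSR1, CHIR99021, WNT3A in both repeats (4.38%). The median was -0.56 (-0.68 and -0.40 in the 2 repeats), and 5 members had an unadjusted p under 0.05, all lower (6.87% of all genes). None passed over all genes by edgeR, and MIXL1, TBXT and EVX1 were called without CHIR99021 18 h, MIXL1 also by DESeq2.

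TBXT, the brachyury gene of early mesoderm, had 0 counts in mTeSR1, 13.2 and 9.23 CPM with WNT3A, and 1.24 and 1.56 CPM with CHIR99021. The homeobox gene MIXL1 was at 27.4 and 49.0 CPM with WNT3A, 1.08 and 3.61 CPM with CHIR99021, and 0.471 and 1.30 CPM in mTeSR1. Both genes were higher in every WNT3A library than in every CHIR99021 library, and CHIR99021 cells held 12.5% and 6.15% of those means. The log2 differences were -2.97 (SE 1.30, FDR 0.42) for TBXT and -4.10 (SE 1.12, FDR 0.41) for MIXL1, with FDR 0.022 and 0.0060 without CHIR99021 18 h. By DESeq2 the adjusted p was 0.30 for TBXT and 0.022 for MIXL1. EOMES, which encodes another T-box factor of the streak, was at 30.9 and 15.6 against 3.89 and 2.54 CPM, and EVX1 at 22.2 and 3.97 against 1.73 and 0.539 CPM. LHX1, an organizer factor, was at 2.55 and 1.81 CPM with WNT3A and at 0.216 and 0.162 CPM with CHIR99021.

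Ligands of the streak separated the agents less. NODAL, the TGFB family ligand that sustains the streak, was at 66.1 and 91.8 CPM with WNT3A and 32.1 and 77.1 CPM with CHIR99021, over 2.46 and 7.94 CPM in mTeSR1. Its groups overlapped, though CHIR99021 was lower within each repeat (log2 difference -0.69, SE 0.25, FDR 0.41). The difference was -0.15 without WNT3A 6 h repeat 1 and -1.15 without WNT3A 6 h repeat 2. WNT3 itself was at 4.58 and 6.68 against 2.97 and 5.61 CPM and FGF8 at 8.16 and 9.15 against 2.87 and 8.31 CPM, both overlapping. The NODAL antagonist LEFTY1 was lowest with WNT3A in each repeat, at 0.849 and 5.46 CPM, against 2.33 and 13.6 CPM with CHIR99021 and 8.58 and 21.7 CPM in mTeSR1. SNAI1, a regulator of epithelial to mesenchymal transition, was at 4.20 and 2.36 CPM with WNT3A, below the 4.70 and 5.34 CPM with CHIR99021. FOXA2 and CER1, genes of anterior streak and endoderm, were at 2.51 CPM or less in all 6 libraries.

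Caudal and axial patterning genes had the lowest list median, -1.45 (-1.73 and -1.08 in the repeats). Of 15 members 13 were tested (HOXB2 and MEIS1 were too low). CHIR99021 was below WNT3A without overlap in 9 and above in 1 (18.0% and 16.5% of all genes), and 9 had the order mTeSR1, CHIR99021, WNT3A in both repeats (4.38%). GBX2, a homeobox factor of the posterior epiblast and hindbrain, was at 75.3 and 53.7 CPM with WNT3A, 8.60 and 9.39 CPM with CHIR99021, and 1.10 and 1.13 CPM in mTeSR1 (log2 difference -2.81, SE 0.67, FDR 0.40, and FDR 0.0073 without CHIR99021 18 h). The caudal homeobox gene CDX2 was at 18.7 and 11.4 against 1.46 and 1.08 CPM (log2 difference -3.55, SE 1.48, FDR 0.41, and FDR 0.0085 without CHIR99021 18 h). CDX2 was thus at 8.43% of its WNT3A mean with CHIR99021, the lowest share in this list. By DESeq2 neither gene passed, with an adjusted p of 0.055 for GBX2 and 0.30 for CDX2. CDX1 was at 7.79 and 2.24 against 0.541 and 1.13 CPM.

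NKX1-2, a homeobox gene of the caudal progenitor zone, was at 642 and 435 CPM with WNT3A, 228 and 165 CPM with CHIR99021, and 43.9 and 40.6 CPM in mTeSR1. CHIR99021 gave 36.5% of the WNT3A mean there (log2 difference -1.45, SE 0.28, FDR 0.39, and FDR 0.029 without CHIR99021 18 h). The ligand gene FGF18, whose promoter is printed above, was at 17.9 and 16.6 CPM with WNT3A and 2.54 and 3.51 CPM with CHIR99021 (log2 difference -2.50, SE 0.45, FDR 0.39), and DESeq2 called it. WNT5B, a ligand of noncanonical signalling, was at 49.1 and 18.9 against 7.84 and 7.07 CPM. GAD1, an enzyme of GABA synthesis, was at 39.0 and 18.8 against 11.7 and 8.85 CPM. CYP26A1, which degrades retinoic acid, was the member above WNT3A in both CHIR99021 libraries, at 2.70 and 2.86 against 2.03 and 1.34 CPM. WNT5A overlapped, and the HOX gene HOXB1 was at 0.864 CPM or less in all 6 libraries.

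WNT-responsive genes outside these lists, named because earlier results on these samples had pointed to them, showed both kinds of pattern. FOXB1, a forkhead factor, was at 72.2 and 93.0 CPM with WNT3A and 48.6 and 74.2 CPM with CHIR99021 over 1.67 and 2.04 CPM in mTeSR1 (log2 difference -0.44, SE 0.14, FDR 0.41). SEMA3C, a secreted guidance cue, was at 26.5 and 52.0 against 7.57 and 14.8 CPM, and PROX1, a homeobox factor, at 12.3 and 19.6 against 5.14 and 5.88 CPM. The groups overlapped in FOXB1 and were apart in SEMA3C and PROX1. REST, a repressor of neuronal genes, was at 151 and 183 against 98.6 and 83.9 CPM, and the zinc finger gene SALL3 at 238 and 323 against 145 and 164 CPM. HERC3 was at 23.0 and 41.3 against 9.41 and 17.7 CPM. SLITRK5, a neuronal membrane protein gene, was at 44.4 and 39.8 against 12.1 and 8.09 CPM, and the glycosyltransferase gene GCNT1 at 53.8 and 43.8 against 22.5 and 15.4 CPM.

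The machinery that receives and relays the signal differed at a few inducible components. Of 18 receptor and co-receptor genes 7 were below WNT3A without overlap and 0 above (18.0% and 16.5% of all genes), with a median of -0.20 (-0.07 after a correction for gene length). FZD10 was at 10.7 and 10.7 CPM with WNT3A, 4.22 and 5.12 CPM with CHIR99021, and 0.314 and 0.284 CPM in mTeSR1. FZD1 was at 10.8 and 5.34 against 4.06 and 1.78 CPM, and ROR2, a receptor for noncanonical ligands, at 31.0 and 24.5 against 12.8 and 11.7 CPM. These 3 had unadjusted p of 0.027, 0.0073 and 0.029 with FDR 0.41 each (edgeR). The main co-receptors LRP5 and LRP6 overlapped, at 63.0 and 61.7 against 59.6 and 64.4 CPM for LRP5.

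In the destruction complex and its relay, 3 of 18 genes were below and 2 above without overlap (again 18.0% and 16.5%), and the median was -0.16 (-0.01 after the length correction). The targets of CHIR99021 themselves did not separate the groups. GSK3A was at 107 and 81.2 CPM with WNT3A and 105 and 106 CPM with CHIR99021, and GSK3B at 81.2 and 105 against 84.6 and 78.1 CPM. CTNNB1, which encodes β-catenin, was at 551 and 741 against 474 and 351 CPM (log2 difference -0.65, SE 0.20, FDR 0.41), with 484 and 582 CPM in mTeSR1. Its difference was -0.36 without WNT3A 6 h repeat 2 and -0.36 without CHIR99021 6 h repeat 2. CSNK1E, a casein kinase gene, was at 149 and 119 CPM with WNT3A, below the 166 and 178 CPM with CHIR99021.

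Of 14 TCF factors and co-factors 5 were below and 1 above WNT3A without overlap (18.0% and 16.5% of all genes), with a median of -0.07. Lower were the Groucho co-repressor genes TLE1, TLE3 and TLE4, with BCL9 and CTNNBIP1, while TLE2 and TLE5 overlapped. TLE3 was at 381 and 458 CPM with WNT3A, 164 and 136 CPM with CHIR99021, and 76.3 and 81.8 CPM in mTeSR1 (log2 difference -1.49, SE 0.18, FDR 0.10, edgeR). TLE1 was at 304 and 297 against 209 and 237 CPM, and TLE4 at 45.0 and 42.6 against 29.9 and 22.8 CPM. These 3 had the order mTeSR1, CHIR99021, WNT3A in both repeats. The TCF family members that are not in the feedback list, TCF7L1 and TCF7L2, were at 207 and 245 against 206 and 249 CPM and at 52.7 and 62.1 against 50.1 and 57.7 CPM. TCF7L1, the main TCF repressor of pluripotent cells, thus had matching levels under both agents, below its 280.1 and 311 CPM in mTeSR1.

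Several genes of the pluripotent state had levels with CHIR99021 that lay between those of mTeSR1 and WNT3A. FOXD3, a forkhead repressor of pluripotent cells, was at 54.0 and 45.6 CPM in mTeSR1, 10.4 and 9.87 CPM with CHIR99021, and 4.62 and 3.18 CPM with WNT3A (log2 difference 1.39, SE 0.38, FDR 0.41). HESX1, an anterior homeobox repressor, was at 13.5 and 9.19, then 6.33 and 5.61, then 4.29 and 4.40 CPM in the same order. OTX2 kept that order too, at 67.8 and 42.2, 49.2 and 37.2, and 30.0 and 33.2 CPM. SHISA2, of the secreted WNT inhibitor list, encodes a protein that holds back maturation of Frizzled and FGF receptors. It was at 36.9 and 40.4 CPM in mTeSR1, 10.1 and 4.48 CPM with CHIR99021, and 4.20 and 4.24 CPM with WNT3A. Over the pluripotency list of 21 genes (20 tested), 8 were above and 3 below WNT3A without overlap (16.5% and 18.0% of all genes), with a median of 0.08.

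The core factors diverged from each other within that list. POU5F1, summed over its identifiers, was at 1372 and 562 CPM with WNT3A, 1573 and 1672 CPM with CHIR99021, and 1656 and 951 CPM in mTeSR1. The gap lay mainly in repeat 2, and without WNT3A 6 h repeat 2 its log2 difference was 0.33 in place of 0.85 (SE 0.32, FDR 0.41). NANOG was lower with CHIR99021 within each repeat, at 96.9 and 144 CPM against 137 and 263 CPM, and SALL4 at 364 and 324 against 425 and 702 CPM. SOX2 was at 308 and 323 CPM with CHIR99021 and 306 and 233 CPM with WNT3A. PRDM14 overlapped, at 23.2 and 54.2 CPM with WNT3A and 46.9 and 50.7 CPM with CHIR99021, against 96.2 and 139 CPM untreated.

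Of the genes higher with CHIR99021 than with WNT3A, the first by unadjusted p after AL513523.9 were GUSBP9, TNFSF11, IGSF11, TXNIP, PRPF39, MINPP1, MT1F, HIST2H2BD and DDIT4, none past the threshold. TNFSF11, the cytokine RANKL, was at 1.84 and 1.53 CPM with WNT3A, 4.92 and 6.15 CPM with CHIR99021, and 8.21 and 7.03 CPM in mTeSR1 (log2 difference 1.71, SE 0.33, FDR 0.39). IGSF11, an adhesion molecule, was at 0.236 and 0.354 against 1.57 and 1.67 CPM. In these 2 the WNT3A libraries were the low ones. TXNIP, an inhibitor of thioredoxin and glucose uptake, was at 6.61 and 2.99 CPM with WNT3A and 11.4 and 10.5 CPM with CHIR99021, over 9.10 and 5.39 CPM in mTeSR1. PRPF39, a splicing factor gene, was at 22.6 and 23.3 against 34.8 and 38.8 CPM. The metallothionein gene MT1F overlapped, at 3.35 and 7.74 against 6.22 and 17.2 CPM.

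All 16 genes of the integrated stress response, the program that ATF4 runs when translation initiation is limited, had a log2 difference above 0. Their median was 0.31 (0.20 in repeat 1 and 0.45 in repeat 2), 7 were above WNT3A without overlap and 0 below (16.5% and 18.0% of all genes), and 6 had an unadjusted p under 0.05 (5.17%). None passed over all genes, and DESeq2 called DDIT4. CHAC1, a glutathione-degrading enzyme and an ATF4 target, was at 14.4 and 7.35 CPM with WNT3A, 20.5 and 19.2 CPM with CHIR99021, and 16.5 and 12.3 CPM in mTeSR1. DDIT4, an inhibitor of mTORC1, was at 13.5 and 5.50 against 23.1 and 15.7 CPM, with 25.6 and 14.8 CPM in mTeSR1 (log2 difference 1.12, SE 0.26, FDR 0.40). ATF4 was at 355 and 211 against 417 and 398 CPM, over 363 and 246 CPM. The low values of the list were in WNT3A 6 h repeat 2, one of the 2 libraries with the length trend. Without that library the median was 0.20, and with the length correction it was 0.35. ATF3, ASNS, SESN2 and PSAT1 overlapped between the agents. The part of the length trend in the list's difference was not tested beyond these values.

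**Figure D3:**
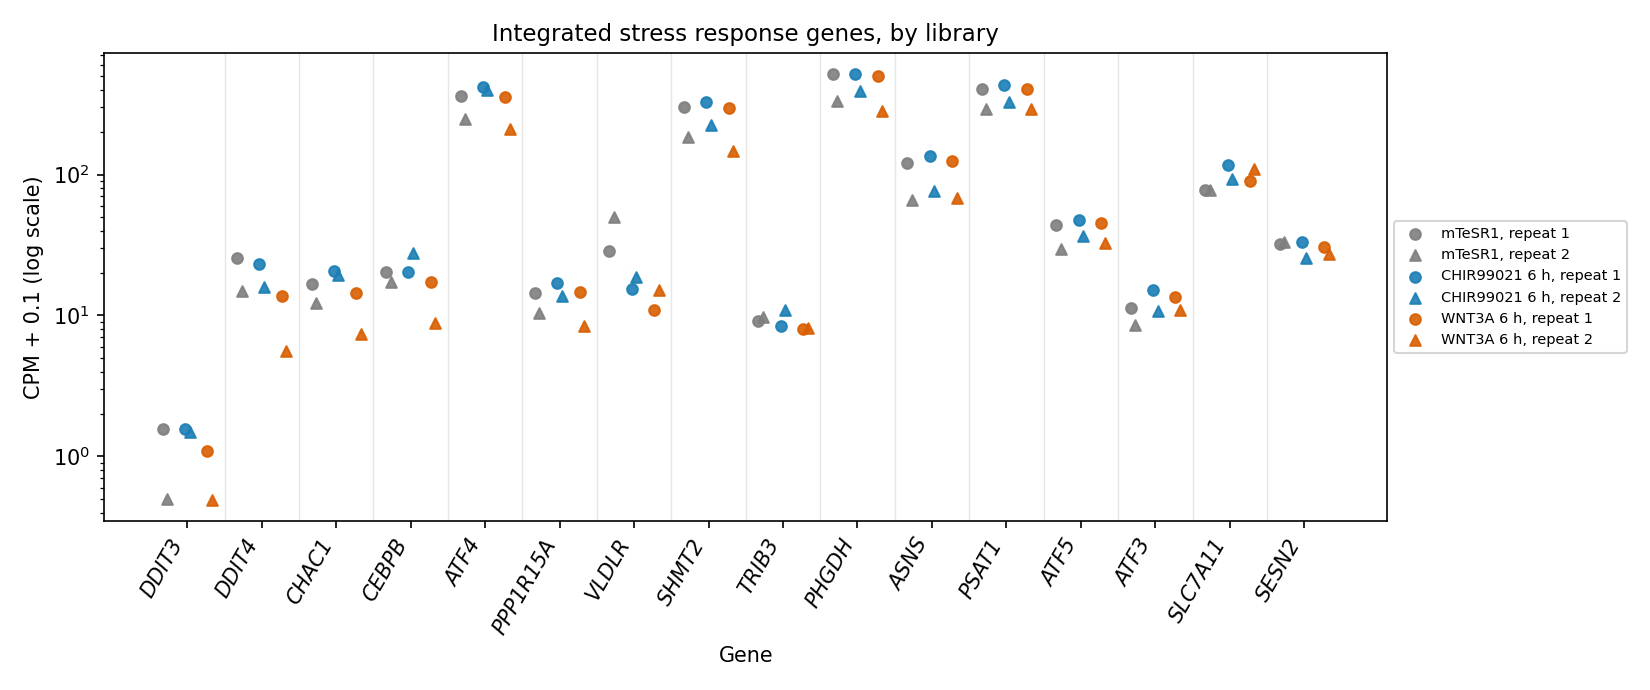
CPM plus 0.1 on a log axis for the 16 integrated stress response genes in untreated cells (grey), CHIR99021 6 h (blue) and WNT3A 6 h (orange), with circles for repeat 1 and triangles for repeat 2, ordered by the difference between the agents. In CHAC1 and DDIT4 the orange triangle (WNT3A repeat 2) is the lowest point and both blue points lie above both orange points.

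The 13 mitochondrially encoded genes had a median of -0.40 (-0.63 after the length correction and -0.53 without WNT3A 6 h repeat 2). Lower with CHIR99021 without overlap were 8 of them, and 0 were higher (18.0% and 16.5% of all genes). MT-ND6, the 1 protein gene on the light strand, was at 1139 and 944 CPM with WNT3A and 806 and 386 CPM with CHIR99021 (log2 difference -0.87, SE 0.22, FDR 0.40, and -0.50 without CHIR99021 6 h repeat 2), and DESeq2 called it. MT-ND5 was at 2601 and 5100 against 2150.3 and 2081 CPM, with 2179 and 4320 CPM in mTeSR1. Its log2 difference was -0.77, and -0.48 without WNT3A 6 h repeat 2, a library with the length trend. In mTeSR1 MT-ND6 was at 841 and 844 CPM, which is near the CHIR99021 level of repeat 1 and above that of repeat 2.

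Other signalling lists held single genes that followed the WNT order. In the BMP and TGFB list (16 tested, 3 below and 3 above WNT3A without overlap where 18.0% and 16.5% of all genes were, median -0.11), the activin antagonist FST was at 290.4 and 234 CPM with WNT3A, 119 and 105 CPM with CHIR99021, and 12.5 and 7.43 CPM in mTeSR1 (log2 difference -1.22, SE 0.32, FDR 0.40). ID2, a target of BMP signalling, was at 54.1 and 31.7 against 21.2 and 22.3 CPM, while ID1 was at 26.8 and 27.6 CPM with WNT3A and 31.4 and 54.0 CPM with CHIR99021. In the hedgehog list (8 tested, 4 below and 2 above) the receptor gene PTCH1 was at 63.0 and 75.3 against 52.0 and 46.0 CPM, and GLI1 was at 14.9 and 16.7 against 18.5 and 24.0 CPM. Of 9 YAP and TEAD genes 4 were below and 1 above. AMOTL2 was at 136 and 113 against 76.3 and 75.8 CPM, and TEAD1 at 189 and 337 against 154 and 141 CPM, and DESeq2 called both. The edgeR difference of TEAD1 went from -0.79 to -0.42 without WNT3A 6 h repeat 2, a library with the length trend, and to -0.51 without CHIR99021 6 h repeat 2. Among 12 Notch genes the ligand JAG1 was at 82.8 and 68.8 against 47.9 and 46.6 CPM, and LFNG, which modifies the Notch receptor, at 10.9 and 4.79 against 17.2 and 12.0 CPM.

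Metabolic and growth lists had medians of -0.12 to 0.26, and their counts below and above WNT3A stand against 18.0% and 16.5% of all genes. Of 22 sterol and fatty acid synthesis genes 7 were below WNT3A without overlap and 0 above, with a median of -0.12. Of 12 genes of glycogen metabolism and the insulin response, where GSK3 has its founding substrate, 4 were below and 0 above with a median of -0.02. GYS1, which encodes muscle-type glycogen synthase, was at 70.1 and 88.1 against 59.3 and 64.1 CPM. Among 11 NRF2 targets 1 was below and 3 above (median 0.02), and HMOX1, heme oxygenase 1, was at 21.8 and 14.7 against 36.5 and 26.1 CPM. Of 18 replication and mitosis genes 5 were below and 4 above (median -0.04), with MKI67, a long transcript, at 246 and 848 against 223 and 241 CPM. In MKI67 the WNT3A level of repeat 2 was the one apart, and mTeSR1 repeat 2, the other library with the length trend, was at 585 CPM. ERK feedback genes (15 tested, 1 below and 3 above, median 0.03), glycolysis and hypoxia genes (13 tested, 4 below and 1 above, median -0.07) and p53 targets (12 tested, 0 below and 2 above, median 0.09) had members on both sides of 0, as did secreted WNT inhibitors (16 tested, 2 below and 3 above, median 0.05) and AHR targets (5 tested, 0 below and 1 above, median 0.26).

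**Figure D4:**
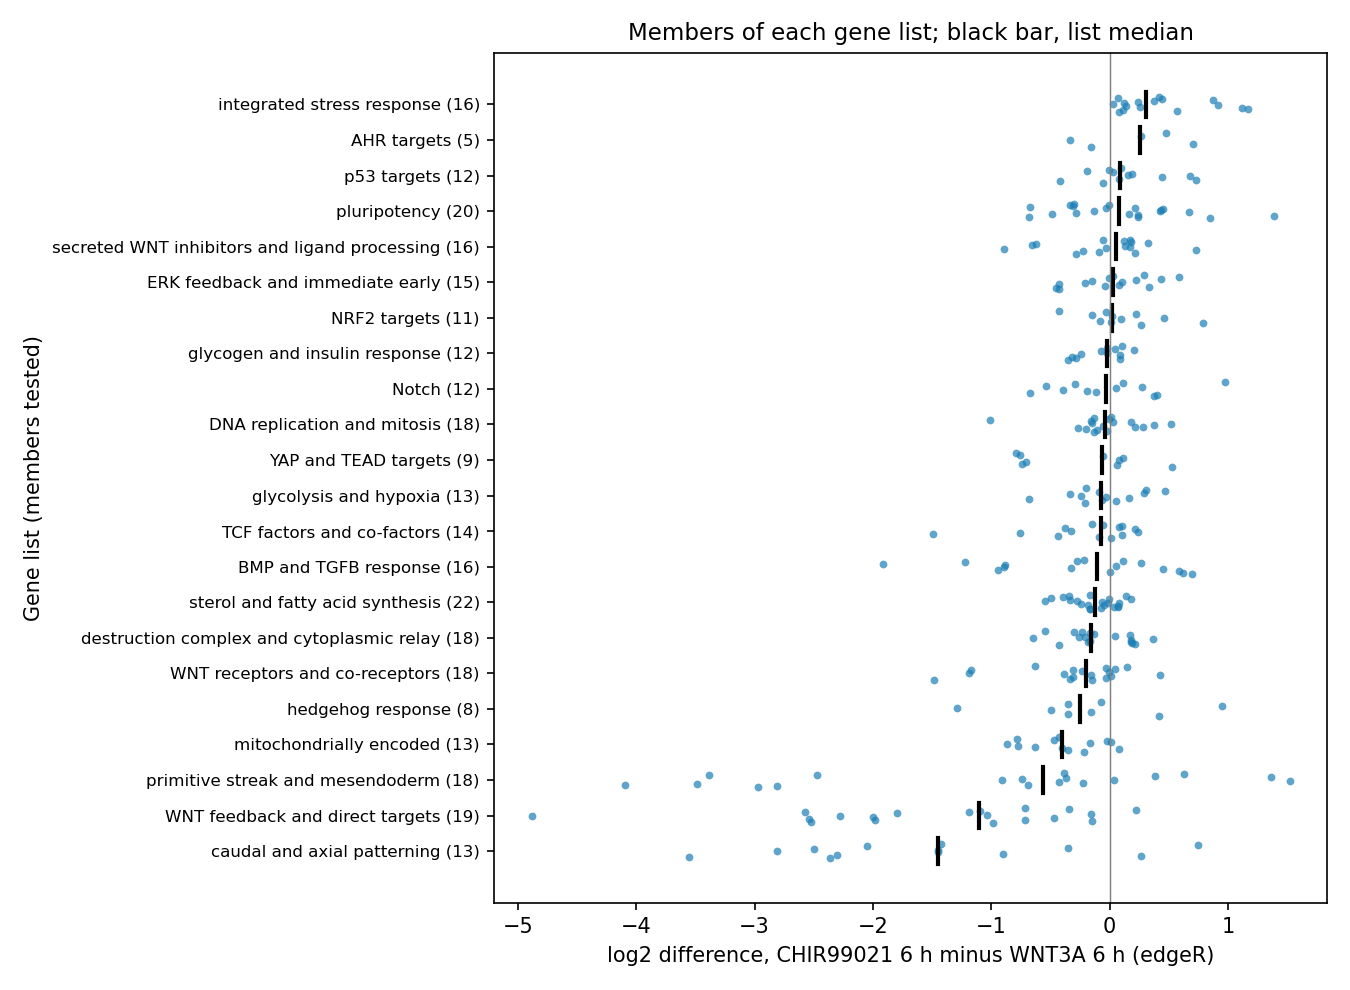
Log2 difference of CHIR99021 6 h minus WNT3A 6 h (edgeR) for each tested member of 22 gene lists, 1 point per gene, with the list median as a black bar and the number tested in parentheses. Among these 22 pathway lists the caudal, WNT feedback and streak lists have the lowest medians (-1.45, -1.10 and -0.56) and the integrated stress response the highest (0.31).

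Most markers of other cell types were too low to be tested or low under both agents, with NES, COL1A2, KDR and HBB as exceptions. In the trophoblast and amnion list 2 of 10 markers were tested, and HAND1 and CGA had 0 counts in all 6 libraries. Its summed level was 20.5 and 14.9 CPM with WNT3A and 17.6 and 14.1 CPM with CHIR99021. Definitive endoderm markers summed to 4.53 and 7.86 CPM with WNT3A and 3.24 and 5.29 CPM with CHIR99021, with SOX17 and GATA6 too low to be tested. Paraxial and lateral mesoderm markers, of which 3 of 8 were tested, summed to 104 and 212 against 149.8 and 167 CPM, nearly all of it KDR. In the neural list NES made up the sum, at 464 and 426 against 401 and 225 CPM, and SOX1 was too low to be tested. Of the fibroblast markers COL1A2 was at 113 and 119 CPM with WNT3A and 71.1 and 80.4 CPM with CHIR99021 (FDR 0.41), while DCN had 0 counts. The part of other cells in these levels was not tested.

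Whether the gap between the agents at 6 h differed from that at 18 h was tested in the same fit. No gene passed the FDR threshold for this agent by time term by edgeR (0%) and DESeq2 called 12. An unadjusted p under 0.05 was reached by 574 genes (3.76%). NKD1 was at 176 and 93.4 CPM after 18 h of WNT3A and 49.6 and 189.8 CPM after 18 h of CHIR99021, and its gap was smaller at 18 h by 2.47 on the log2 scale (SE 0.80, unadjusted p 0.014, FDR 0.93, edgeR). DKK4 was at 1.93 and 1.04 CPM after 18 h of WNT3A and at 0.0597 and 1.47 CPM after 18 h of CHIR99021. GBX2 was at 109 and 71.3 CPM against 21.8 and 117 CPM with CHIR99021. TBXT was at 60.7 and 54.6 CPM after 18 h of WNT3A, against 3.52 and 49.2 CPM after CHIR99021. One CHIR99021 18 h library was thus near the WNT3A level in these genes and the other nearer the CHIR99021 6 h level. NEDD9 was at 9.28 and 7.77 CPM after 18 h of WNT3A and 5.61 and 4.63 CPM after CHIR99021, so that its WNT3A level at 6 h stood above all other groups. Without CHIR99021 18 h replicate 1 the term was passed by 6 genes, and without replicate 2 by 2.

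**Figure D5:**
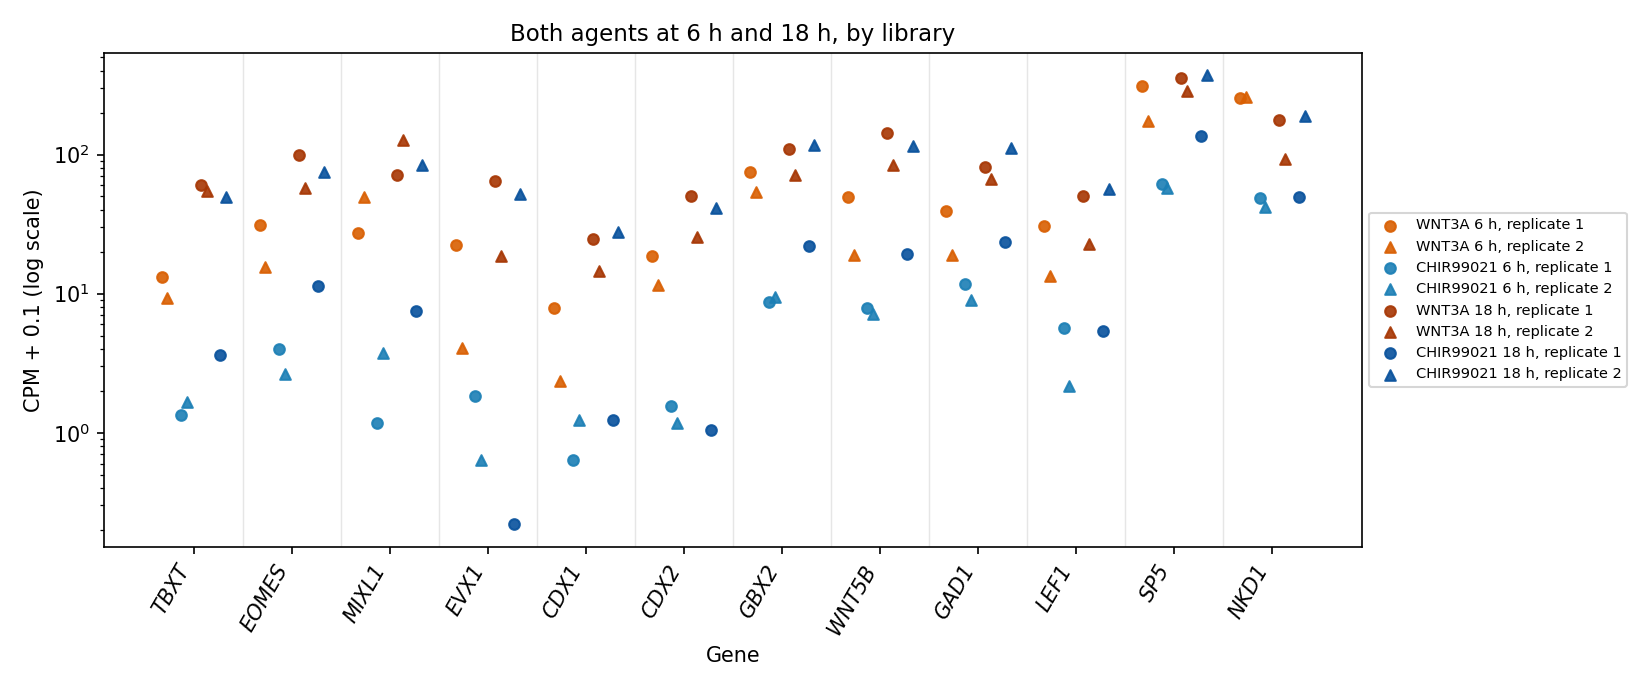
CPM plus 0.1 on a log axis for 12 streak, caudal and WNT target genes after 6 h (light) and 18 h (dark) of WNT3A (orange) or CHIR99021 (blue), 1 point per library, with circles and triangles for replicates 1 and 2. Both CHIR99021 18 h libraries belong to repeat 2, and their circle lies below their triangle in all 12 genes, for TBXT at 3.52 against 49.2 CPM.

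A few genes were present under one agent and at 0 counts under the other. At 0 in both WNT3A libraries and at 1 CPM or more in both CHIR99021 libraries were 5 genes, AL513523.9, AC009412.1, GUSBP9, HIST2H4B and ZBTB45P1, and the reverse held for FAM220A alone. The pseudogene GUSBP9 was at 1.62 and 1.40 CPM with CHIR99021, at least 11.7-fold above the floor of WNT3A. FAM220A and AC009412.1 mirrored each other. FAM220A was at 20.0 and 16.1 CPM with WNT3A and at 0 with CHIR99021, and AC009412.1 at 0 with WNT3A and at 18.8 and 18.7 CPM with CHIR99021. Their sum was 16.1 to 23.1 CPM in all 10 libraries, so that a shift of reads from one symbol to the other and a change in 2 genes cannot be told apart in this table. They and the GUSBP9 and histone copies can share reads with near-identical loci and are uncertain. The call of AL513523.9, with 0 counts in the same libraries as GUSBP9, is uncertain as well.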

How the data were processed

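The authors deposited estimated counts per gene, 1 column per library, for 10 libraries of ESI017 cells. The submitters' processing notes list Salmon 1.8.0 and GRCh38. How transcripts were combined into genes, from which annotation and with which strand setting is not stated in these sources. Per the labels' protocols, libraries were paired-end and made from poly-T selected RNA.

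The deposited estimated counts were summed over the identifiers of a gene symbol (37951 identifiers, 35940 symbols, 3045 identifiers with a shared symbol) and rounded to whole numbers. Genes with a count of at least 10 (total of at least 15) under edgeR's filter were kept, which left 15251. All libraries entered 1 fit in edgeR 4.0.16 (R 4.3.3) with TMM scaling, group and repeat as terms, and the robust quasi-likelihood test. Genes were called at a Benjamini-Hochberg adjusted p (FDR) under 0.05. Log2 values in the text are CHIR99021 minus WNT3A unless stated. The series' design text gives the repeats that pair the libraries. Deviations from group means of same-repeat libraries correlated at 0.261 to 0.595 over 6 pairs of groups. The value was 0.320 for WNT3A 6 h with CHIR99021 6 h, and the highest was for mTeSR1 with WNT3A 6 h. In repeat 2 the length trend had a rho of 0.448 with WNT3A 6 h and -0.251 with CHIR99021 6 h. The block does not remove such a difference within a repeat. Chi-square per degree of freedom between libraries of a group was 12.8 to 105, so none was a duplicate. The analysis was tested on simulated data. DESeq2 1.42.0, other scalings and filters, a gene length correction (lengths from GENCODE 29 for 99.3% of genes) and left-out libraries served as alternatives. P-values rest on the spread between libraries of a group. For CHIR99021 18 h that spread is between 2 libraries of the same repeat.

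Named genes were those called, filled to 10 per direction by unadjusted p, the members of the WNT feedback, streak and caudal lists at 1 CPM or more in a 6 h group, and in every other list the 2 members of lowest p. Other members named were chosen after their values were seen. Some members of these lists are not reported here by name. The comparison, the members and the gene lists were chosen with earlier results of these data known. Promoter sequences are from RefSeq, and motifs were searched by exact letters.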

Additional observations from a re-analysis of the deposited data

How the results depend on the processing

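The main fit called 3 genes between the agents at 6 h, and the counts below are all genes called under each setting. Without the replicate block edgeR called 1, with no filter on low counts 10, and with the block and length correction 7. With the block it called 69 from only the 4 compared libraries and 16 without CHIR99021 18 h. Per Ensembl identifier it called 0 (1708 at an unadjusted p under 0.05). DESeq2 called 100, of which 2 were shared with the main fit. RLE and upper-quartile factors and non-robust estimation each gave 3. Leaving libraries out gave 0 to 17. The 0 came without either CHIR99021 6 h, WNT3A 6 h or mTeSR1 library, 16 and 17 without one CHIR99021 18 h library, 6 without either WNT3A 18 h library, and 11 without the 2 libraries with a length trend. The sets that leave out mTeSR1 or 18 h libraries were added after seeing the data. For the agent by time term, with 0 calls, DESeq2 called 12, edgeR 1 with no filter and 1 per identifier, and 0 to 11 with libraries left out. Where a group keeps 1 library, that library is taken to vary like the other groups.

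Of 2330 alternative values of 111 named genes, 19 in 15 genes changed sign. With the length correction FGF4 was at -0.013 and GDF3 at -0.014. With libraries left out the log2 difference ranged from -0.43 to 0.11 for NKD2, -0.57 to 0.19 for WIF1, -0.10 to 0.42 for MYC, -0.74 to 0.048 for BAMBI, -0.76 to 0.20 for FOXA2, -0.0043 to 0.091 for FGF4, -1.90 to 0.084 for FGF8, -0.21 to 1.00 for LEFTY2, -0.017 to 1.01 for CYP26A1, -0.79 to 0.066 for MDM2, -0.071 to 0.74 for TFAP2C, -0.24 to 0.97 for HBB, -0.20 to 0.52 for KDR and -0.51 to 0.24 for PDGFRA. The cause was not tested.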
